A study of Mus musculus with 9 samples.

Results

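The 10 Toll-like receptor genes Tlr1, Tlr2, Tlr3, Tlr4, Tlr5, Tlr6, Tlr7, Tlr8, Tlr9 and Tlr13 were followed in the fat around the prostate (periprostatic fat) of mice with diet-induced obesity and of control mice. They were chosen by gene symbol among probe sets assigned to a single gene. All 10 were found, each with 1 probe set, among 22180 genes in all. Male C57BL/6J mice were given a high fat diet that drew 60 percent of its energy from fat (5 mice) or a low fat diet with 10 percent (4 mice). Diets began at 6 weeks of age and lasted 12 weeks, so all mice were 18 weeks old when tissue was taken. The labels name no transgene and no mutation. Each mouse gave 1 Affymetrix Mouse Gene 2.0 ST array, and no samples were pooled. Values are log2 expression as deposited, so a difference of 1 is a doubling, and precision is set by the number of arrays.

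Toll-like receptors are pattern recognition receptors of innate immunity. Members at the cell surface sense lipids and proteins of microbes, and members in endosomes sense nucleic acids. With the exception of Tlr3, they signal through the adaptor protein encoded by Myd88 to NF-kB and to the transcription of cytokines, and Tlr3 uses the adaptor encoded by Ticam1. In adipose tissue they are studied as sensors that link dietary fat to macrophage activation. Tlr1, Tlr2, Tlr4, Tlr5 and Tlr6 are the surface receptors here. Tlr3, Tlr7, Tlr8, Tlr9 and Tlr13 are the endosomal receptors here, and Tlr11 and Tlr12 are described apart from them.

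The depot carried adipocyte transcripts on every array: the mean of 7 adipocyte markers lay between 12.33 and 12.51 in high fat mice, against 12.55 and 12.60 in low fat mice. The probasin gene Pbsn, a prostate marker, was at 4.67 in high fat mice and 4.66 in low fat mice, near the lowest value of the table (4.41). On the same list of 7 epithelial and accessory gland markers, the keratin genes were higher. Krt8 was at 7.85 in high fat mice and 7.70 in low fat mice, and Krt18 at 7.19 and 7.08. Epcam, Svs2, Svs4 and Svs5 had group means from 4.90 to 5.50. By limma 0 of the 7 were called. Smooth muscle markers were high in low fat mouse 2. Skeletal muscle markers were high in high fat mouse 1 and, less so, in low fat mouse 4 (means 8.35 and 7.32). Values were spread more widely on the arrays of high fat mice 1 and 2 than on the others (SD 1.87 against 1.83 to 1.84). Without high fat mouse 1, without low fat mouse 2 or without low fat mouse 4, the same 7 receptors passed as in all mice. All group means of the 10 receptors lay at 7.14 or above. The medians of the arrays over all genes were lower, between 6.955 and 6.98 in high fat mice and between 6.91 and 6.947 in low fat mice. Every high fat array thus had a higher median than every low fat array. Whether any value lay above background was not determined.

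The comparison asks whether transcripts of surface and endosomal receptors differ between the diets. In high fat mice 7 of the 10 receptor genes rose and 0 fell by limma, with 0 lower at an unadjusted p under 0.05. The largest rises were those of the endosomal receptors Tlr13 (5.14-fold), Tlr8 (3.34-fold) and Tlr7 (2.17-fold), followed by the surface receptors Tlr1 (2.03-fold), Tlr6 (1.60-fold), Tlr2 (1.55-fold) and Tlr4 (1.14-fold). Tlr3, Tlr5 and Tlr9 did not pass the test. A gene was called changed at a Benjamini-Hochberg adjusted p under 0.05 in limma over all 22180 genes, and 12.4% of all genes were called higher in high fat mice and 9.13% were called lower, which is 2742 and 2026 genes. With quantile normalization repeated 2320 genes were called higher and 2771 lower, and centring each array on its median gave 2227 higher and 3056 lower. Under either rescaling 6 receptors were called higher, without Tlr4. In 6 receptors every high fat mouse lay above every low fat mouse, which held for 11.6% of all genes. The arrays measure RNA of whole tissue, so more cells of a type and more RNA per cell cannot be told apart.

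**Figure D1:**
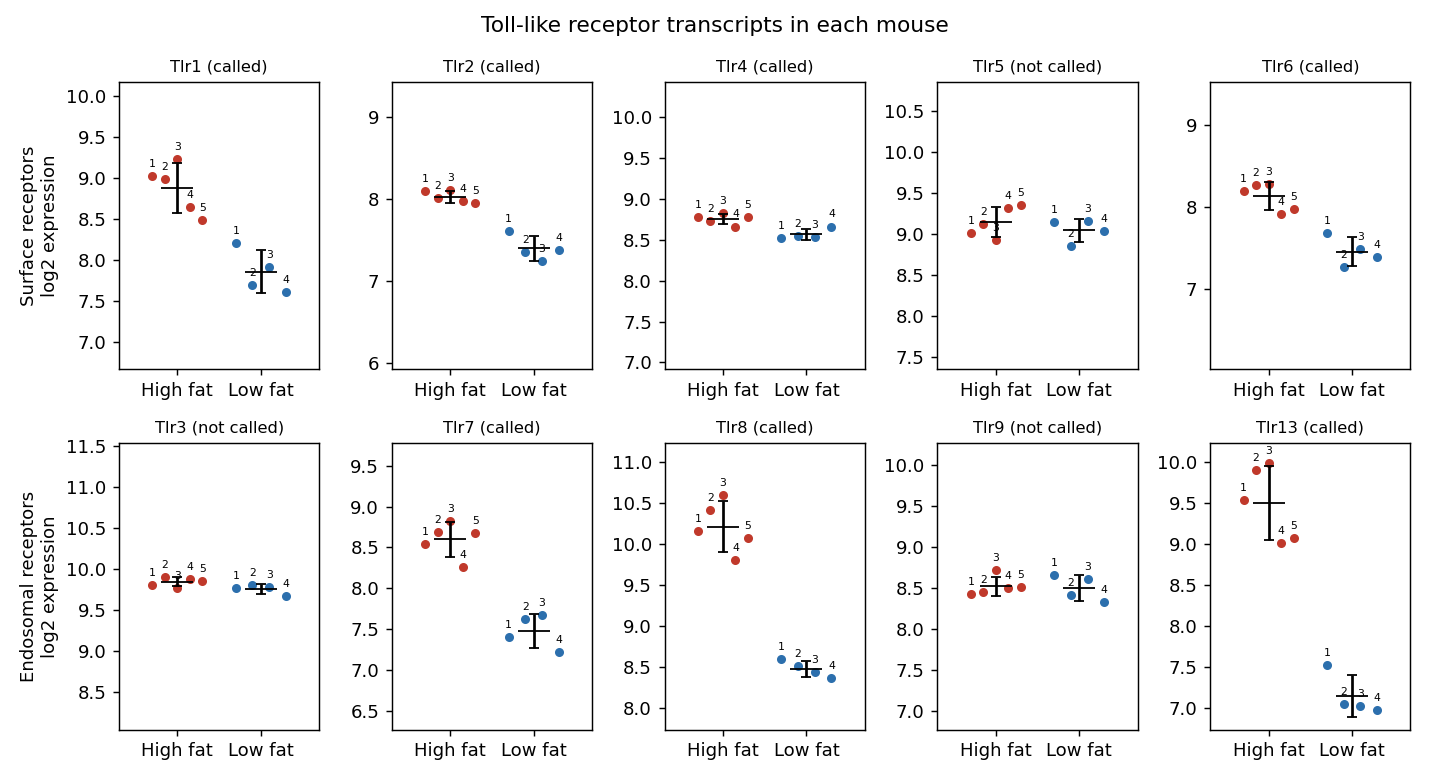
Log2 expression of the 5 surface receptors (top row) and the 5 endosomal receptors (bottom row) in each mouse, numbered by mouse, with high fat mice in red and low fat mice in blue; bars show the mean and SD, and every panel spans the same log2 range around a centre of its own. The diets separate fully in Tlr1, Tlr2, Tlr6, Tlr7, Tlr8 and Tlr13, meet at 8.66 in Tlr4, whose call was lost with arrays rescaled, and overlap in Tlr3, Tlr5 and Tlr9.

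Among surface receptors, Tlr2 recognises bacterial lipopeptides as a dimer with Tlr1 or Tlr6. Tlr2 was at 8.10, 8.02, 8.11, 7.97 and 7.95 in high fat mice 1 to 5, against 7.61, 7.36, 7.25 and 7.38 in low fat mice 1 to 4. The groups did not overlap, and low fat mouse 1 was the highest of its diet. Tlr2 was higher by 0.63 ± 0.07 (SE; limma adjusted p = 0.000263).

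Tlr1, the partner of Tlr2 for triacylated lipopeptides, was at 9.03, 8.99, 9.23, 8.65 and 8.48 in high fat mice, against 8.21, 7.70, 7.91 and 7.61 in low fat mice. High fat mice 4 and 5 lay below the other 3 of their diet, and still above all low fat mice. The difference in Tlr1 was 1.02 ± 0.17 (SE; limma adjusted p = 0.00181). Tlr6, the partner of Tlr2 for diacylated lipopeptides, was at 8.20, 8.27, 8.29, 7.92 and 7.98 in high fat mice, against 7.68, 7.27, 7.49 and 7.39 in low fat mice. As in Tlr1, high fat mice 4 and 5 were the lowest of their diet, low fat mouse 1 was the highest of its own, and the groups did not overlap. Tlr6 was higher by 0.68 ± 0.10 (SE; limma adjusted p = 0.00124). Tlr1 and Tlr6 are paralogs that neighbour each other on mouse chromosome 5, with 0 protein-coding genes between them in the reference table. Their probes may share signal, so how the rise divides between Tlr1 and Tlr6 is uncertain.

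Tlr4 is the receptor for lipopolysaccharide and the family member most often discussed as a sensor of saturated fat. Tlr4 was at 8.78, 8.73, 8.82, 8.66 and 8.78 in high fat mice, against 8.52, 8.54, 8.53 and 8.66 in low fat mice. The 2 mice numbered 4 had the same value, and the other high fat mice lay above all low fat mice. The difference in Tlr4 was 0.19 ± 0.05 (SE; limma adjusted p = 0.0173), with a 95% confidence interval of 0.08 to 0.29. The call of Tlr4 was lost with quantile normalization repeated (0.14, limma adjusted p = 0.0953), with arrays centred on their medians (0.15, limma adjusted p = 0.0635), with the mouse number as a block (0.18, limma adjusted p = 0.101) and without high fat mice 1 and 2 (0.19, limma adjusted p = 0.076).

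Tlr5, the receptor for bacterial flagellin, was at 9.01, 9.12, 8.92, 9.31 and 9.35 in high fat mice, against 9.14, 8.84, 9.15 and 9.03 in low fat mice. The groups overlapped, and high fat mouse 3, the highest in the receptors above, was the lowest of its diet here. The difference in Tlr5 was 0.10 ± 0.10 (SE; limma adjusted p = 0.548), with a 95% confidence interval of -0.12 to 0.32.

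Among endosomal receptors, Tlr13 detects bacterial ribosomal RNA in mice. Tlr13 was at 9.54, 9.90, 9.99, 9.01 and 9.08 in high fat mice, against 7.53, 7.04, 7.02 and 6.98 in low fat mice. High fat mice 1, 2 and 3 stood above high fat mice 4 and 5, and low fat mouse 1 stood above the other low fat mice. The difference in Tlr13 was 2.36 ± 0.22 (SE; limma adjusted p = 0.000117), with a 95% confidence interval of 1.88 to 2.85.

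Tlr8 is a receptor of the same subfamily as Tlr7, and in humans its protein senses breakdown products of single-stranded RNA. Tlr8 was at 10.17, 10.42, 10.61, 9.81 and 10.08 in high fat mice, against 8.59, 8.51, 8.44 and 8.37 in low fat mice. The lowest high fat mouse lay far above the highest low fat mouse, and the low fat mice were close together. Tlr8 was higher by 1.74 ± 0.14 (SE; limma adjusted p = 6.44e-05), the smallest adjusted p of the 10 receptors. Tlr7, a sensor of single-stranded RNA, was at 8.54, 8.69, 8.83, 8.26 and 8.68 in high fat mice, against 7.41, 7.62, 7.67 and 7.22 in low fat mice. The groups did not overlap, and mouse 4 was the lowest of each diet. The difference in Tlr7 was 1.12 ± 0.12 (SE; limma adjusted p = 0.000236). Tlr7 and Tlr8 neighbour each other on the X chromosome, with 0 protein-coding genes between them in the reference table, and Tlr13 lies elsewhere on the same chromosome.

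Tlr9, the receptor for DNA with unmethylated CpG dinucleotides, was at 8.42, 8.45, 8.72, 8.50 and 8.52 in high fat mice, against 8.65, 8.42, 8.61 and 8.32 in low fat mice. The groups overlapped over most of their range. The difference in Tlr9 was 0.02 ± 0.08 (SE; limma adjusted p = 0.909), with a 95% confidence interval of -0.16 to 0.20, and its sign turned when arrays were rescaled. Tlr3, the sensor of double-stranded RNA, was at 9.81, 9.90, 9.77, 9.89 and 9.86 in high fat mice, against 9.77, 9.80, 9.78 and 9.68 in low fat mice. Low fat mouse 4 was the lowest of the 9, and high fat mouse 3 lay within the low fat range. The difference in Tlr3 was 0.09 ± 0.04 (SE; limma adjusted p = 0.193), with a 95% confidence interval of -0.01 to 0.19.

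Set side by side, 3 of 5 endosomal receptors and 4 of 5 surface receptors rose, against 12.4% of all genes. The median difference was 1.12 over the endosomal receptors, 0.63 over the surface receptors and -0.0011 over all 22180 genes. Differences ran from 0.02 (Tlr9) to 2.36 (Tlr13) among endosomal receptors and from 0.10 (Tlr5) to 1.02 (Tlr1) among surface receptors, so the endosomal receptors held both the largest and the smallest. Tlr11 (0.10) and Tlr12 (0.08), endosomal receptors described below, are not among these 5 and were not called. Both lie below the surface median of 0.63, and with them the endosomal median would too. The order of the 2 medians thus rests on leaving them out. Whether the 2 classes differ from each other in their diet difference was not tested.

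**Figure D2:**
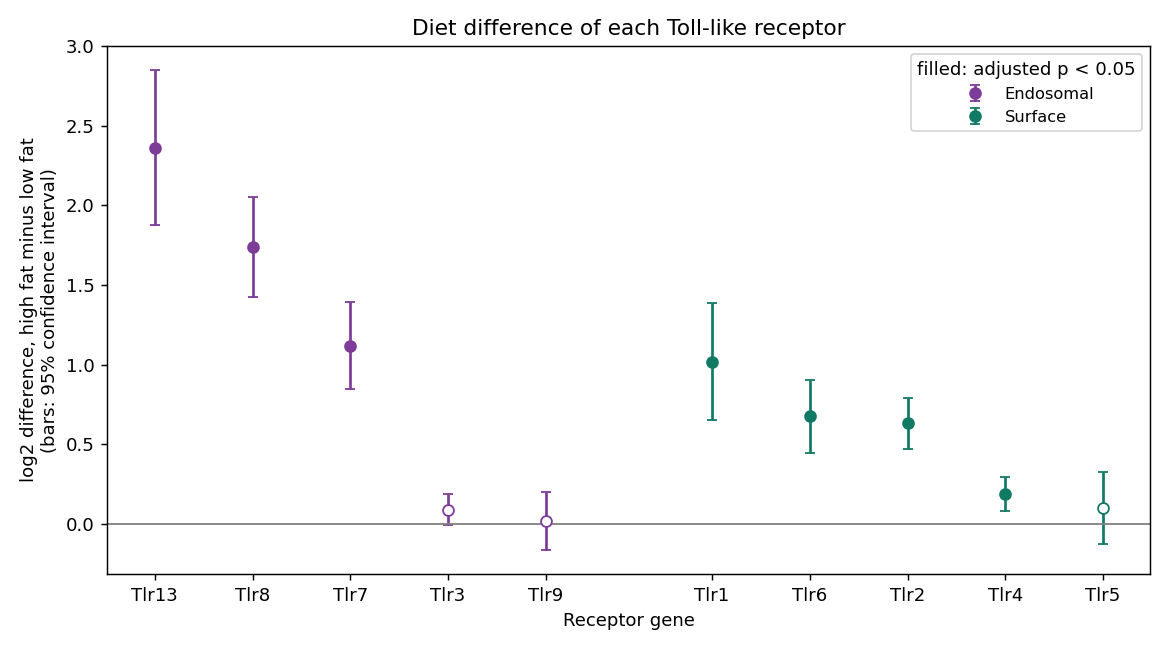
Diet difference of each receptor (log2 expression, high fat minus low fat) with its 95% confidence interval, endosomal receptors in purple and surface receptors in green, each ordered by size; filled points passed limma at an adjusted p under 0.05. Intervals of Tlr3, Tlr9 and Tlr5 include 0; that of Tlr4 runs from 0.08 to 0.29, and Tlr4 did not pass with quantile normalization repeated or with arrays centred on their medians.

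The receptors that rose had the same highest mouse within the high fat diet, while the order of the other mice varied. High fat mouse 3 was the highest of its diet in all 7 receptors that were called, and high fat mouse 4 was the lowest in 5 of the 7, while high fat mouse 5 was the lowest in the other 2, Tlr1 and Tlr2. Among low fat mice, mouse 1 was the highest in 5 of the 7. The mean log2 value of 10 macrophage markers was 10.69, 10.81, 10.93, 10.42 and 10.62 in high fat mice 1 to 5, against 9.94, 9.83, 9.82 and 9.64 in low fat mice 1 to 4. It was thus highest in high fat mouse 3 and lowest, within that diet, in high fat mouse 4. Of these 10 markers 8 were called higher in high fat mice and 1 lower, against 12.4% and 9.13% of all genes. Among the higher were Adgre1, the gene of the surface antigen F4/80, and Cd68, a lysosomal glycoprotein gene, with differences of 1.17 and 1.87. The marker called lower was Mertk (-0.14, limma adjusted p = 0.0313), with no overlap between the diets. That call was lost without high fat mouse 1, 2 or 3, and without low fat mouse 2, 3 or 4. Cd163 was not called (-0.17, limma adjusted p = 0.215). The part of the macrophage markers in the rise of the receptors was not tested.

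Markers of other cell types were set beside the receptors too. Of 6 fibroblast and adipose progenitor markers 3 were called higher and 0 lower by limma (0 lower at an unadjusted p under 0.05), with a median difference of 0.47. Among them were the collagen gene Col1a1, with a difference of 1.25, and the growth factor receptor gene Pdgfra, with 0.70. The mean of these markers ran from 10.87 to 11.33 in high fat mice, against 10.27 to 10.67 in low fat mice, without overlap, and was highest in high fat mouse 5 and lowest, within that diet, in high fat mouse 1. Of the 7 adipocyte markers 5 were called lower, each with no overlap between the diets, and 1, the leptin gene Lep, was called higher (0.60). Over all genes 12.4% were called higher and 9.13% lower. Every high fat mouse lay below every low fat mouse in 2030 of 22180 genes. The part of these cells in the rise of the receptors was not tested.

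Among leukocyte markers, of 6 B cell markers 0 passed limma (3 at an unadjusted p under 0.05; 1 was called lower with arrays rescaled), with differences from -1.13 to -0.32, and their mean ran from 6.85 to 7.86 in high fat mice, against 7.50 to 8.69 in low fat mice. Of 6 plasmacytoid dendritic cell markers 1 was called lower (2 with arrays rescaled), and of 8 neutrophil markers 1 was called higher and 1 lower. Of 7 T and NK cell markers 1 was called lower, with differences from -0.49 to -0.06. Of 6 conventional dendritic cell markers 1 was called higher (0 higher and 1 lower with arrays rescaled). Beside these counts, 12.4% of all genes were called higher and 9.13% lower. Of 6 monocyte markers 3 were called higher, with a mean of 8.30 to 8.52 in high fat mice, against 7.996 to 8.36 in low fat mice. B cells and plasmacytoid dendritic cells are known sites of Tlr9 expression. Tlr9 was highest of the high fat mice in mouse 3, where the B cell mean was lowest, and highest of the low fat mice in mouse 1, where the B cell mean was highest. The part of these cells in the Tlr9 values was not tested.

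**Figure D3:**
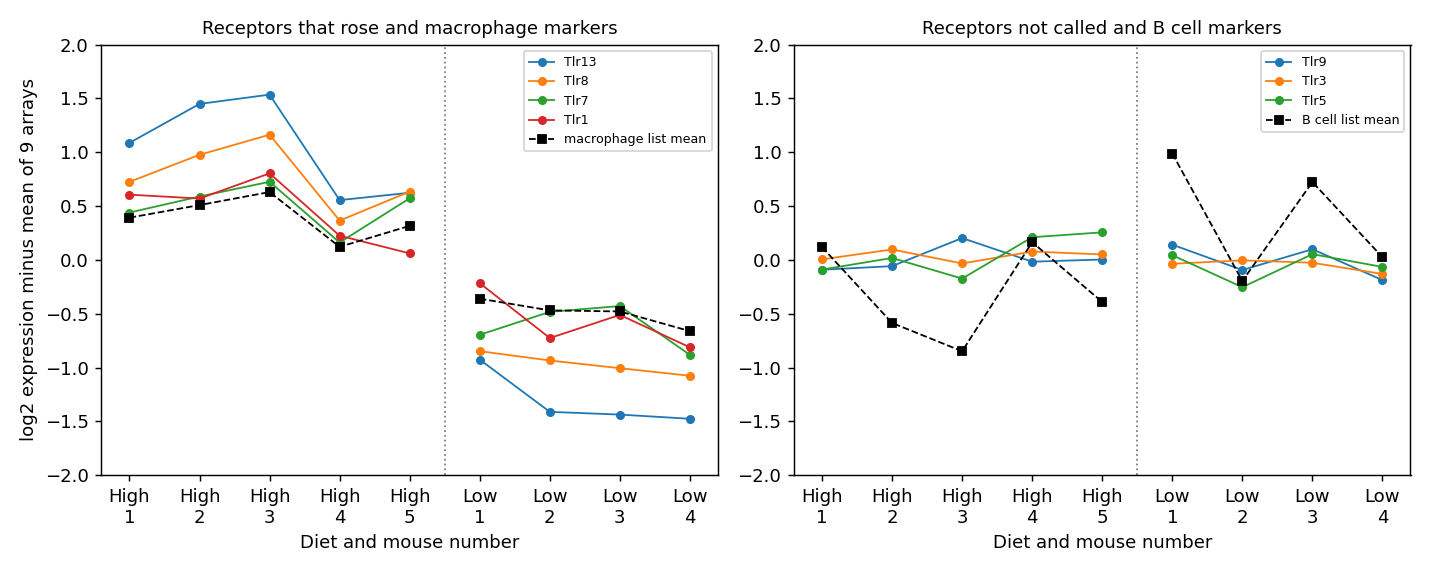
Log2 expression of each gene minus its mean over the 9 arrays, for high fat mice 1 to 5 and low fat mice 1 to 4; points within a diet are joined only to guide the eye, and black squares show the mean of 10 macrophage markers (left) or 6 B cell markers (right). Tlr13, Tlr8, Tlr7 and Tlr1 peak in high fat mouse 3, as do the macrophage markers, whereas the diets overlap in Tlr9, Tlr3 and Tlr5.

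Likeness between genes was measured as the root mean square difference between log2 profiles over 9 arrays, each centred on its own mean. The 3 genes most like Tlr13 were Hpgds, the haematopoietic prostaglandin D synthase gene, at a root mean square difference of 0.12, the cathepsin gene Ctsk at 0.13, and the transcription factor gene Atf3 at 0.14. Their diet differences were 2.30 for Hpgds, 2.57 for Ctsk and 2.45 for Atf3, beside 2.36 for Tlr13. The measure includes the diet shift itself, so near diet differences follow from how these genes were picked. The genes most like Tlr4 were Mtdh (0.03) and the unnamed transcripts 2010320O07Rik (0.03) and 2010308F09Rik (0.04). Their diet differences were 0.19, 0.18 and 0.16 in that order, and 2010308F09Rik did not pass (limma adjusted p = 0.0553). The 2 unnamed transcripts lay below the medians of the arrays, at 5.65 and 5.43 in high fat mice, against 5.47 and 5.27 in low fat mice.

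Promoter sequence is shown for the 2 receptors that rose most and for Tlr9, the receptor with the smallest difference. Each is the 250 bases upstream of the RefSeq transcript start, 5′ to 3′ on the strand of the gene (build GRCm38.p6), with Tlr13 at chrX:106143025-106143274 on the plus strand, Tlr8 at chrX:167264330-167264579 on the minus strand and Tlr9 at chr9:106222348-106222597 on the plus strand. Capitals mark a match to any of the 4 motifs described next.
Tlr13: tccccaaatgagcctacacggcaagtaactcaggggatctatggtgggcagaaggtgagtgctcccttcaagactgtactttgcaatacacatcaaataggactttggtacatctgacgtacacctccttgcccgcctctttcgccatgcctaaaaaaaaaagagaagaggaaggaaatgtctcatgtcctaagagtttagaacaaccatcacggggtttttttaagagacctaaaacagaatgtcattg
Tlr8: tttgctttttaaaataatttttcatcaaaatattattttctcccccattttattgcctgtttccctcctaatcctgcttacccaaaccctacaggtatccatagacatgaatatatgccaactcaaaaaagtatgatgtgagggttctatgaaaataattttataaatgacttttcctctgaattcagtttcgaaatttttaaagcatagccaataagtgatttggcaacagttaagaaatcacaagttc
Tlr9: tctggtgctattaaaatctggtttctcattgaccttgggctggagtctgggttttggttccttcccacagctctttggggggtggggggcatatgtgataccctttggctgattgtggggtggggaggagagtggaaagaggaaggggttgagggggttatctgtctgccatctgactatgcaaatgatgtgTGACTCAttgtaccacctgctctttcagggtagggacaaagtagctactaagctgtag

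In the promoter windows of 8 of the 10 receptors (Tlr4 and Tlr7 have no entry), matches on either strand were sought to GAGGAAGT (the myeloid factor PU.1), GAAA, any 2 bases and GAAA (interferon regulatory factors), TGANTCA (AP-1) and TGACGTCA (ATF and CREB factors). These occur in 2.44%, 2.98%, 6.75% and 1.55% of 32851 windows of the same length. Tlr1 and Tlr6 each have 2 windows, for 2 starts. Tlr1 held the PU.1 letters between 23 and 16 bases upstream of 1 of its starts, and its other window held no match. Tlr6 held 2 overlapping matches to the interferon regulatory factor motif, between 116 and 101 bases upstream of 1 of its starts, and no match in its other window. Tlr9 held the AP-1 letters between 58 and 52 bases upstream. The windows of Tlr2, Tlr3, Tlr5, Tlr8 and Tlr13 held none of the 4.

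Co-receptors and accessory proteins of the family rose in 8 of 12 measured genes, against 12.4% of all genes called higher. By limma 0 fell (1 lower at an unadjusted p under 0.05), against 9.13% of all genes called lower. With quantile normalization repeated or with arrays centred on their medians, 1 was called lower. The same shares of all genes apply to the pathway lists that follow. Cd180, a relative of Tlr4 without a signalling domain, was at 10.58, 10.65, 11.01, 10.28 and 10.08 in high fat mice, against 9.45, 8.75, 9.41 and 8.75 in low fat mice. Its groups did not overlap, and Cd180 was 2.69-fold higher (limma adjusted p = 0.00114). Ly86, the secreted partner of Cd180, was 1.78-fold higher (limma adjusted p = 0.000994). Lbp, which encodes the lipopolysaccharide-binding protein, averaged 12.44 ± 0.04 in high fat mice (SD, n = 5), against 11.34 ± 0.34 in low fat mice (SD, n = 4), a 2.13-fold rise (limma adjusted p = 0.000348). Low fat mouse 2 was the lowest of its diet in Lbp, at 10.90.

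Ly96, which encodes the MD-2 subunit that holds lipopolysaccharide for Tlr4, averaged 11.08 ± 0.15 in high fat mice (SD, n = 5), against 10.58 ± 0.15 in low fat mice (SD, n = 4), and was 1.42-fold higher (limma adjusted p = 0.0032). Cd14, the co-receptor that delivers lipopolysaccharide to this complex, was at 8.61, 8.88, 9.15, 8.34 and 8.38 in high fat mice, against 8.18, 7.93, 8.21 and 7.90 in low fat mice. Cd14 was 1.53-fold higher (limma adjusted p = 0.0217), and the groups did not overlap. Its call was lost without high fat mouse 2 (0.56, limma adjusted p = 0.0533), without low fat mouse 2 (0.57, limma adjusted p = 0.059), without low fat mouse 4 (0.56, limma adjusted p = 0.063) and without high fat mice 1 and 2 (0.57, limma adjusted p = 0.102). Unc93b1, the chaperone that carries endosomal receptors out of the endoplasmic reticulum, was at 10.94, 10.99, 11.17, 10.75 and 10.84 in high fat mice, against 10.46, 10.37, 10.40 and 10.15 in low fat mice. Unc93b1 was 1.51-fold higher (limma adjusted p = 0.00128), with no overlap.

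Endosomal receptors are cut by lysosomal proteases before they can signal. All 6 protease genes on the list rose, with a median difference of 1.16, and in each the diets did not overlap. Of all genes 12.4% were called higher, and in 11.6% every high fat mouse lay above every low fat mouse. Ctss, the cathepsin S gene, was at 11.70, 11.77, 11.79, 11.23 and 11.38 in high fat mice, against 9.85, 9.61, 9.71 and 9.46 in low fat mice. High fat mice 4 and 5 were again the lower of their diet, and Ctss was 3.77-fold higher (limma adjusted p = 3.29e-05). Ctsk, the cathepsin K gene, was 5.93-fold higher, Lgmn, the asparaginyl endopeptidase gene, 2.68-fold higher and Ctsb, the cathepsin B gene, 1.24-fold higher. These enzymes also serve general lysosomal breakdown, and Ctsk is best known from osteoclasts.

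**Figure D4:**
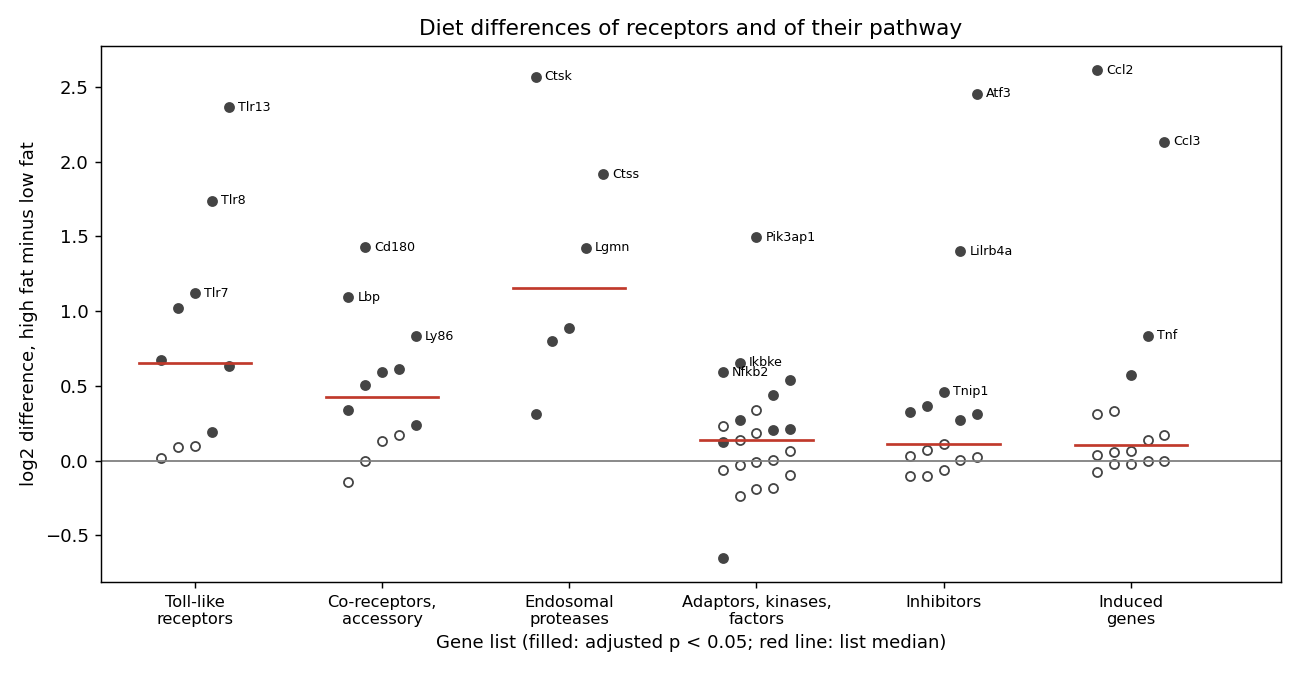
Diet differences (log2 expression, high fat minus low fat) of the 10 receptors and of 5 gene lists of their pathway, 1 point per gene, filled where limma's adjusted p was under 0.05, with the list median in red and the 3 highest genes named. Medians were 0.65 for the receptors, 0.42 for accessory proteins and 1.16 for proteases, against 0.13, 0.11 and 0.10 for adaptors, inhibitors and induced genes; the receptor count includes Tlr4, whose call was lost with arrays rescaled.

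Downstream of the receptors, 9 of 23 measured adaptor, kinase and transcription factor genes rose and 1 fell, with a median difference of 0.13. Myd88 averaged 9.72 ± 0.06 in high fat mice (SD, n = 5), against 9.45 ± 0.08 in low fat mice (SD, n = 4), 1.21-fold higher (limma adjusted p = 0.0044). Pik3ap1, which encodes an adaptor to phosphoinositide 3-kinase, was at 10.3, 10.43, 10.65, 10.02 and 10.04 in high fat mice, against 9.03, 8.71, 8.80 and 8.66 in low fat mice. It was the only gene of this list with a difference above 1, at 2.81-fold (limma adjusted p = 9.53e-05). Ikbke, a kinase gene, was 1.57-fold higher, Nfkb2, an NF-kB subunit gene, 1.51-fold and Ticam2, which encodes the adaptor that bridges Tlr4 to the product of Ticam1, 1.45-fold. Tab3, which encodes a binding partner of the kinase TAK1, was 1.57-fold lower (limma adjusted p = 9.15e-05). With quantile normalization repeated or with arrays centred on their medians, 4 genes of this list were called lower, and without high fat mice 1 and 2 the number called higher was 5. Without high fat mouse 4, 2 were called lower.

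Of 15 measured inhibitors of the pathway 7 rose and 0 fell by limma (0 lower at an unadjusted p under 0.05), although 1 was called lower with quantile normalization repeated. Atf3, a repressor induced by the receptors, was at 10.71, 10.82, 10.77, 10.04 and 10.02 in high fat mice, against 8.26, 8.09, 7.9995 and 7.74 in low fat mice. The groups did not overlap, and Atf3 was 5.47-fold higher (limma adjusted p = 6e-05). Lilrb4a, an inhibitory receptor gene of myeloid cells, was 2.64-fold higher, Tnip1, whose product partners the ubiquitin-editing enzyme encoded by Tnfaip3, 1.38-fold and Socs3, an inhibitor of cytokine signalling, 1.29-fold. The call of Socs3 was lost with the mouse number as a block (0.33, limma adjusted p = 0.0575), and a second probe set of Socs3 did not pass (0.05, limma adjusted p = 0.386). The count of inhibitors called higher was 4 without low fat mouse 4 and 4 without high fat mice 1 and 2.

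Of 16 cytokine and enzyme genes that the receptors can induce 4 rose and 0 fell by limma (0 lower at an unadjusted p under 0.05), with a median difference of 0.10. The chemokine gene Ccl2 was at 10.95, 10.63, 10.89, 11.29 and 10.95 in high fat mice, against 9.30, 7.66, 8.39 and 7.99 in low fat mice. High fat mouse 4 was the highest of its diet in Ccl2, unlike in the 7 receptors that rose, and Ccl2 was 6.11-fold higher (limma adjusted p = 0.000224). The chemokine gene Ccl3 was 4.39-fold higher, the tumour necrosis factor gene Tnf 1.78-fold and the chemokine gene Cxcl2 1.49-fold. The other 12, which include the interleukin and interferon genes of the list, had differences from -0.07 to 0.33. Their limma adjusted p ran from 0.0553 to 0.982, and 2 had an unadjusted p under 0.05. In Il10 every high fat mouse lay above every low fat mouse (0.31, limma adjusted p = 0.0553). Il10, Il6 (4.94 in high fat, 4.97 in low fat mice) and Ifnb1 (5.03 in both) lay below the medians of the arrays. Whether they lay above background was not determined.

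Mice have 2 further receptors, Tlr11 and Tlr12, endosomal sensors of the protozoan protein profilin. Tlr11 was at 6.86, 6.75, 6.86, 6.75 and 6.81 in high fat mice, against 6.54, 7.24, 6.70 and 6.36 in low fat mice. Low fat mouse 2, the mouse with high smooth muscle markers, was the highest of all 9 in Tlr11. The difference was 0.10 ± 0.15 (SE; limma adjusted p = 0.697), and Tlr11 was called higher without low fat mouse 2 (0.28, limma adjusted p = 0.0311) and was at -0.019 (limma adjusted p = 0.944) without low fat mouse 4. Tlr12 ran from 5.51 to 5.72 in high fat mice, against 5.41 to 5.72 in low fat mice, and did not pass (0.08, limma adjusted p = 0.492). Group means of Tlr11 and Tlr12 lie below the medians of the arrays, and whether they lie above background was not determined.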

How the data were processed

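The authors deposited log2 expression values per probe set, 33793 rows for 9 arrays; RMA (background correction, quantile normalization and probe summary), limma and R 3.5.0 stand in the submitters' processing notes, which state no roles. The annotation version, row filters and hybridisation batches were not stated in the sources used here. Of the rows, 23521 had 1 gene symbol, and where probe sets shared a symbol the one with the highest mean was kept, leaving 22180 genes. Diet was tested with limma 3.58.1 in R 4.3.3 (lmFit and eBayes, intercept and diet), high fat minus low fat, with Benjamini-Hochberg adjustment over all genes and a threshold of 0.05. Folds are powers of 2 of these differences. Simulated data for this comparison held 22180 genes. Of 50 changed genes, 15 were recovered at a log2 change of 0.25, 41 at 0.5, 49 at 1 and 50 at 2. There were 10 false calls among 165. Far more genes, 4768, were called in the measured data, so recovery of small changes there may differ.

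Pathway and marker lists hold textbook genes. The receptors and all lists were chosen with earlier results of these data known, and a list is described by counts and medians without a set test. Named are all 10 receptors, Tlr11, Tlr12, Cd14, Ly96, Unc93b1 and Myd88, and in each pathway list the 4 called genes with the smallest p in each direction; Irf5 was not analysed here. Adgre1, Cd68, Mertk, Cd163, Col1a1, Pdgfra, Lep, Pbsn, Krt8, Krt18, Il10, Il6 and Ifnb1 were named after their values were seen. So were Il1b, Il12a, Il12b, Cxcl1, Epcam, Svs2, Svs4 and Svs5. Promoters come from RefSeq, and protein sequences were not used here. Alternatives covered normalization, centring, dim genes, probe choice, variance model, weights for arrays, a block on mouse number, all rows, and left-out mice. The block used mice 1 to 4 of each diet and so left out high fat mouse 5.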

Additional observations from a re-analysis of the deposited data

Results flagged for a closer look

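Among 36 named genes, each tested in 2 diets, 4 of 72 groups held a mouse whose gap to its nearest neighbour took an unusually large share of the group's range; chance gives about 1 in 20. Low fat mouse 1 was at 7.53 in Tlr13, with the other low fat mice at 6.98 to 7.04. Low fat mouse 4 was at 8.66 in Tlr4, with the others at 8.52 to 8.54. High fat mouse 5 was at 9.83 in Myd88, with the others at 9.68 to 9.71. Low fat mouse 2 was at 6.97 in Ticam2, with the others at 7.10 to 7.11.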

How the results depend on the processing

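Under 19 alternatives, Tlr1, Tlr2, Tlr6, Tlr7, Tlr8 and Tlr13 remained higher and past the threshold in each, and Tlr3, Tlr5 and Tlr9 passed in 0. Tlr13 ran from 2.22 to 2.49, Tlr8 from 1.64 to 1.84 and Tlr7 from 1.03 to 1.20. The difference of Tlr4 did not pass with quantile normalization repeated (0.14), with arrays centred on their medians (0.15), with the mouse number as a replicate block (0.18) or without high fat mice 1 and 2 (0.19); the cause was not tested. Tlr9 turned to -0.032 with quantile normalization repeated and to -0.026 with arrays centred on their medians, and with 1 mouse left out it ran from -0.041 to 0.069 and Tlr11 from -0.019 to 0.28.

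Over all genes, 3056 were called lower with arrays centred on their medians and 1716 higher without high fat mice 1 and 2. Accessory genes called lower numbered 1, against 0, with quantile normalization repeated, arrays centred on their medians, the mean of the probes, the probe with the lowest mean or array weights, and 0 to 1 with 1 mouse left out. Adaptor, kinase and factor genes called lower numbered 4 under each rescaling, 2 with dim genes left out and 1 to 2 with 1 mouse left out, and 5 were called higher without high fat mice 1 and 2. Among inhibitors, 1 was called lower with quantile normalization repeated, and 4 were called higher without high fat mice 1 and 2 and 4 to 7 with 1 mouse left out. Of Tlr11 and Tlr12, 0 to 1 were called higher with 1 mouse left out.

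Mouse numbers are shared by the diets, and deviations of same-numbered mice from their diet means correlated at 0.05 to 0.13 across genes, with 3 of 8 mice most like their own number, so the numbers were not taken as pairs. With that replicate block, 2421 genes were called higher and 1615 lower, against 2742 and 2026 without it, and of named genes Tlr4 and Socs3 (0.33) lost their call. Of 493 values of pathway genes under these alternatives, 485 kept their direction and side of the threshold. Signal over background was not determined. Among the receptors this limits Tlr11 and Tlr12 most, and Il6 (4.94 in high fat mice) and Ifnb1 (5.03) were lower still.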
